A study of Mus musculus with 36 samples.

Results

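The oligodendrocyte lineage and its myelin were followed in the anterior cingulate cortex (aCC) through a fixed list of 32 genes, taken by symbol from the 52636 genes of the deposited TPM table (transcript abundance scaled to a fixed total and corrected for transcript length). All 32 were found, and all 32 passed the filter on low values that left 25572 genes for testing. The list was read in classes: 24 genes of mature, myelinating oligodendrocytes, 3 transcription factors carried by the whole lineage (Olig1, Olig2 and Sox10), and 5 genes of precursors and newly committed cells (Pdgfra, Cspg4, Gpr17, Enpp6 and Bcas1).

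The study asked how loss of 1 copy of Brd1, which encodes a scaffold of histone acetyltransferase complexes, and the tricyclic antidepressant imipramine (IMN) bear on the aCC. Libraries came from 36 female mice of the C57BL/6NTac-Brd1 strain, in the age range of 8 to 11 weeks stated for the study's experiments. IMN at 10 mg/kg was given to 10 WT and 9 Brd1+/- mice, and saline, the vehicle, to 8 WT and 9 Brd1+/- mice. The mutants carried a targeted deletion within Brd1 on 1 allele in every cell of the body, the WT mice were litter-matched, and all groups had been injected and put through behavioural tests before the brains were taken and punched, so vehicle mice are not naive controls.

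Oligodendrocytes wrap axons with myelin, a stack of membrane rich in lipid and held together by a small set of very abundant proteins. They arise throughout life from precursors that carry the receptor PDGFRA and the proteoglycan NG2. Precursors that leave the cycle pass through a short committed stage before they turn on the myelin genes, and in the cortex mature cells are densest in the deep layers and in the white matter below. In bulk tissue, fewer cells of a type and less RNA per cell cannot be told apart.

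TPM totals were 999727 to 999889 per library, so read depth is unknown, and mitochondrially encoded genes took 21.7 to 30.5% of TPM. No 2 of the 36 libraries were identical, and the 630 pairs correlated at 0.958 to 0.982 across genes. Brd1 itself had a median of 26.1 TPM in WT vehicle, 16.0 in Brd1+/- vehicle, 24.002 in WT IMN and 17.3 in Brd1+/- IMN. WT IMN reached down to 17.9 TPM and so overlapped both mutant groups, which reached 20.9 and 19.4 TPM. All 6 cortical glutamatergic markers had a median of at least 1 TPM. The library of Brd1+/- vehicle 6 stood apart through genes of striatum, choroid plexus and ependyma, with Ttr at 3806 TPM where the next library had 38.5.

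The myelin genes ranged very widely between mice of the same group, and the range was much wider than any difference between groups. Mobp, which encodes a compaction protein of central myelin (chromosome 9, 120149707 to 120181484, + strand, GRCm38), ran from 23.8 TPM in WT vehicle 4 to 921 TPM in WT IMN 7, a 38.7-fold range. The standard deviation (SD) of log2(TPM + 0.5) over the 36 libraries was 0.37 to 1.40 for the 24 myelin genes, with a median of 1.04, against a median of 0.27 over all genes tested. Of the 24 genes, 18 lay in the top 5% of all genes tested by this measure. The median share of that variance lying between the 4 groups was 4.31% for the 24 genes and 6.76% over all genes tested, where 4 groups of these sizes without any difference would give 8.57% on average.

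**Figure D1:**
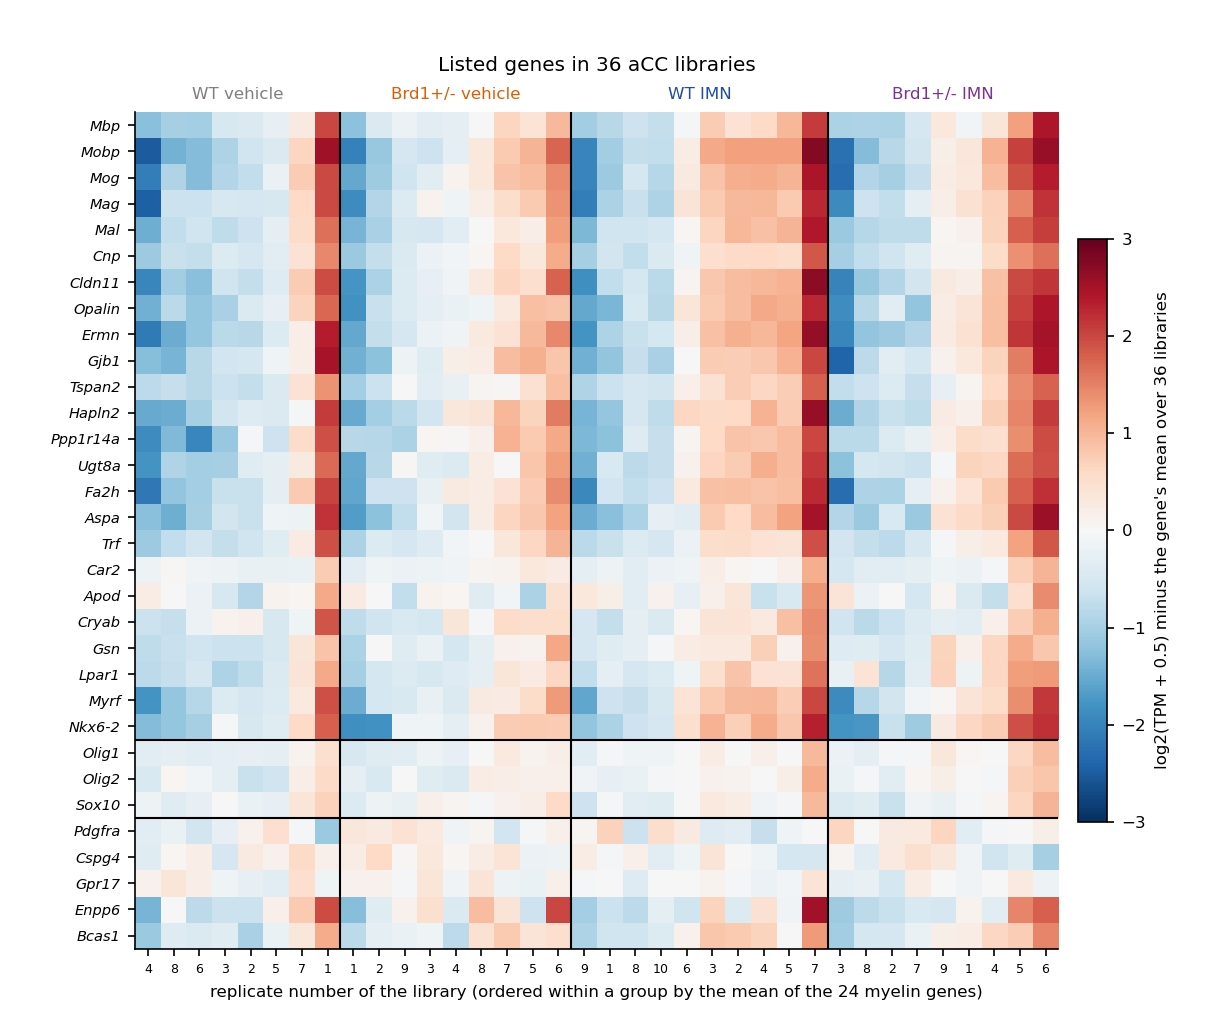
Each row is a listed gene and each column a library, with libraries ordered within a group by the mean of the 24 myelin genes. Colour gives log2(TPM + 0.5) minus the gene's mean over the 36 libraries, and black lines part groups and the classes of 24, 3 and 5 genes. Most myelin rows go from blue to red together inside every group, with Apod as an exception, and Pdgfra, Cspg4 and Gpr17 do not follow them.

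Among the 13 genes of myelin structure, Mbp, the protein that holds the cytoplasmic faces of the sheath together, had 55.5 TPM in the lowest, 97.3 in the median and 537 in the highest of the WT vehicle mice. Its values were 56.7, 117 and 264 TPM in Brd1+/- vehicle, 63.9, 155 and 573 TPM in WT IMN, and 68.8, 126 and 716 TPM in Brd1+/- IMN. In WT vehicle, WT IMN and Brd1+/- IMN 1 or 2 mice lay far above the rest, and all 4 groups overlapped. The highest Brd1+/- vehicle value was that of Brd1+/- vehicle 6 for Mbp, Mobp, Myrf, Lpar1 and Gsn. Without that library the highest values of the group were 209 TPM for Mbp, 277 for Mobp, 10.1 for Myrf, 8.87 for Lpar1 and 19.02 for Gsn.

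Mobp had a lowest, median and highest value of 23.8, 80.4 and 790 TPM in WT vehicle and of 33.0, 113 and 455 TPM in Brd1+/- vehicle. With IMN the values were 34.2, 229 and 921 TPM in WT and 28.3, 153 and 829.1 TPM in Brd1+/- mice. The highest vehicle mouse lay above all but 1 mouse of each IMN group.

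Mog and Mag, both adhesion proteins of the immunoglobulin superfamily on the myelin surface, had 32.3-fold and 28.3-fold ranges over the 36 mice. Claudin 11 (Cldn11), which forms the tight junctions between myelin lamellae, had a 27.2-fold range, and Mal, a raft protein of myelin membrane, a 15.0-fold range. Opalin, a glycoprotein of the oligodendrocyte paranode, and Ermn, a cytoskeletal protein of late oligodendrocytes, had 27.7-fold and 37.5-fold ranges. Narrower ranges belonged to Cnp, the cyclic nucleotide phosphodiesterase of uncompacted myelin, at 7.92-fold, and the tetraspanin Tspan2, at 7.41-fold.

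The remaining structural genes were scarcer. Gjb1, which encodes the gap junction protein connexin 32, had the widest range of the list, from 0.255 TPM in Brd1+/- IMN 3 to 21.7 TPM in WT vehicle 1 (85.0-fold). Hapln2, a link protein of the matrix at nodes of Ranvier, had a 21.9-fold range, and Ppp1r14a, an inhibitor subunit of a protein phosphatase, a 20.3-fold range.

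The 8 genes of lipid synthesis, iron and metabolic support had ranges graded from wide to narrow. Ugt8a, which makes galactosylceramide, Fa2h, which hydroxylates its fatty acid, and Aspa, which cleaves N-acetylaspartate to acetate for lipid synthesis, had ranges of 18.9-fold, 29.8-fold and 30.3-fold. Trf, the iron carrier transferrin, had an 8.38-fold range, and Cryab, a small heat-shock protein, a 6.58-fold range. Car2 (carbonic anhydrase 2), Apod (apolipoprotein D) and Gsn (the actin-severing protein gelsolin) had ranges of 3.12-fold, 5.21-fold and 5.25-fold. All 3 have known sources in brain outside the oligodendrocyte, and the part of such sources in the ranges was not tested.

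Car2 had a median of 64.5 TPM in WT vehicle, 66.3 in Brd1+/- vehicle, 69.1 in WT IMN and 63.5 in Brd1+/- IMN. These medians were close to each other, and single mice lay far above them, up to 153 TPM in WT IMN 7.

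The factors that drive maturation also ranged widely. Myrf, the factor that switches on myelin genes in differentiating oligodendrocytes, had a lowest, median and highest value of 1.59, 4.804 and 27.5 TPM in WT vehicle, 2.12, 5.79 and 17.2 in Brd1+/- vehicle, 1.99, 10.3 and 28.7 in WT IMN, and 1.45, 7.01 and 31.1 in Brd1+/- IMN. The groups overlapped over nearly their whole ranges. Nkx6-2, a homeobox factor of oligodendrocyte maturation, had a 52.7-fold range, and Lpar1, a receptor for lysophosphatidic acid expressed by maturing oligodendrocytes, a 7.01-fold range.

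The 3 pan-lineage factors varied far less. Olig1, Olig2 and Sox10 had SDs of 0.34, 0.38 and 0.40 on the log2 scale and ranges of 2.76-fold, 3.57-fold and 3.36-fold. Olig2 had a median of 12.1 TPM in WT vehicle, 13.6 in Brd1+/- vehicle, 13.6 in WT IMN and 13.7 in Brd1+/- IMN. The medians of the last 3 groups were almost equal and every group overlapped every other.

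The 5 precursor genes did not behave as a class. Pdgfra, the growth factor receptor of precursors, had an SD of 0.41 and a 3.65-fold range, Cspg4, which encodes NG2, an SD of 0.36 and a 3.49-fold range, and Gpr17, a receptor of committed precursors, an SD of 0.24 and a 2.099-fold range. Enpp6, a choline phosphodiesterase of newly forming oligodendrocytes, had an SD of 0.98 and a 40.7-fold range, from 0.273 TPM in WT vehicle 4 to 11.1 TPM in WT IMN 7. Bcas1, a protein of early myelinating oligodendrocytes, had an SD of 0.69 and a 6.19-fold range. Enpp6 and Bcas1 had ranges like those of myelin genes. The ranges of Pdgfra and Cspg4 exceeded that of Car2 alone among the 24 myelin genes (3.12-fold), and that of Gpr17 lay below all 24.

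**Figure D2:**
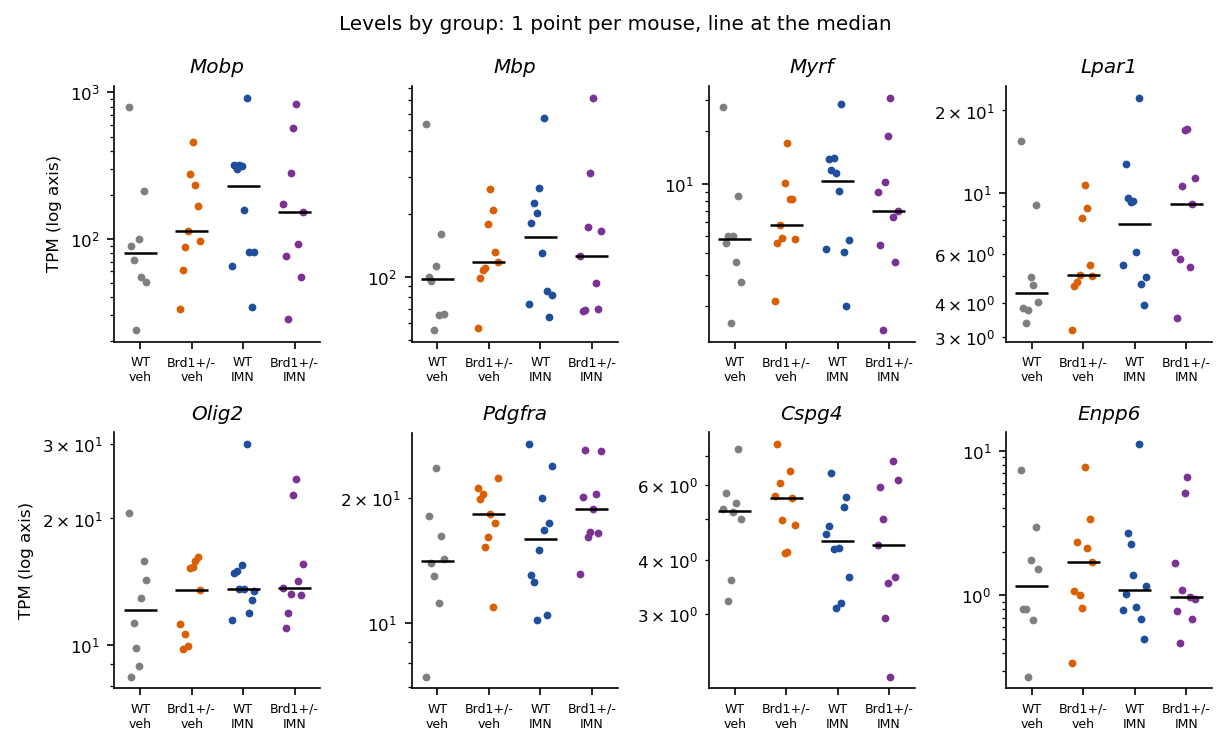
TPM on a log axis for 8 listed genes, 1 point per mouse, with a line at the median of each group. For Mobp, Mbp, Myrf and Enpp6 the WT vehicle, WT IMN and Brd1+/- IMN groups have 1 or 2 mice far above the others, Pdgfra and Cspg4 do not, and the groups overlap for all 8 genes.

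To set the members against a measure that they do not enter, the mean log2(TPM + 0.5) of 24 other myelin and mature oligodendrocyte genes was taken in each library, and group means were subtracted before correlation. Of these 24 genes, 21 had a median of at least 1 TPM, and Ninj2 was at 0 in 19 libraries. Enpp2 had 640 TPM in Brd1+/- vehicle 6, where the next library had 140. The correlation r over 36 libraries had a median of 0.96 for the 24 myelin genes and exceeded 0.9 for 21 of them, where 82 of the 25572 genes tested did so. All values of a library share its RNA and its TPM total, so these r describe the libraries and carry no test. Mal had the highest r at 0.99 (rank correlation 0.98). Below 0.9 lay Car2 at 0.89, Gsn at 0.89 and Apod at 0.43. Apod had a rank correlation of 0.10 and an r of 0.16 without the 2 libraries farthest from the median, so its r rested on those libraries.

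The slope on that mean, in log2 units of the gene per log2 unit of the other myelin genes, was 2.07 for Mobp, 1.19 for Cnp and 0.52 for Car2. Among the pan-lineage factors r was 0.90 for Olig1, 0.82 for Olig2 and 0.92 for Sox10, with slopes of 0.44, 0.45 and 0.57. They rose with the other myelin genes over a smaller excursion. The order of libraries was shared in part, with rank correlations of 0.88, 0.71 and 0.86.

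For the precursor genes r was 0.91 for Bcas1, 0.87 for Enpp6 and 0.21 for Gpr17, and it was -0.41 for both Pdgfra and Cspg4. Without the 2 libraries farthest from the median it was -0.50 for Pdgfra and -0.21 for Cspg4, so the value of Cspg4 rested in part on those libraries. In Brd1+/- vehicle, WT IMN and Brd1+/- IMN the r of Cspg4 was -0.65, -0.46 and -0.77, but in WT vehicle it was 0.45. Pdgfra kept a negative r in all 4 groups, from -0.52 to -0.36. Pdgfra and Cspg4 hardly followed each other (r = 0.08), while Enpp6 and Bcas1 did (r = 0.83).

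**Figure D3:**
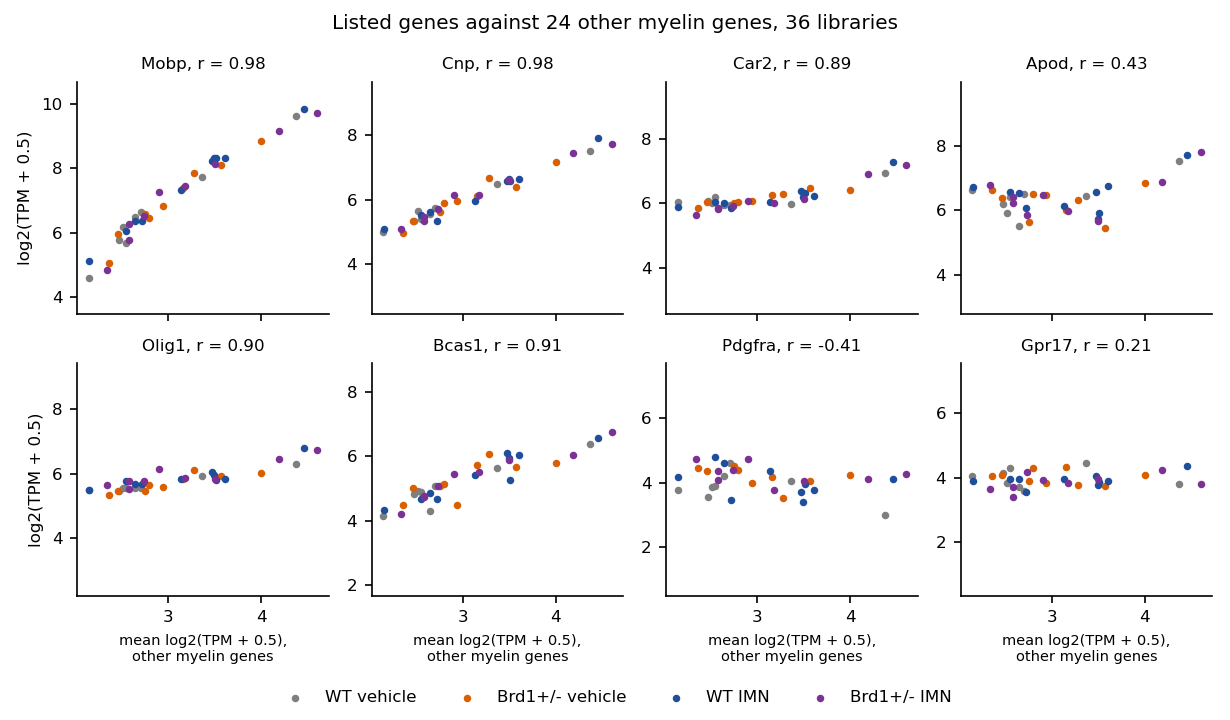
log2(TPM + 0.5) of 8 listed genes against the mean of 24 other myelin genes, 1 point per library, with the same height of axis in each panel and r after group means were subtracted. Mobp, Cnp and Bcas1 climb with the other myelin genes, Olig1 and Car2 climb with a shallow slope, Apod turns up only in the highest libraries, and Pdgfra and Gpr17 stay flat or decline.

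Outside the lists, the 10 genes with the highest r to the mean of the 24 myelin genes were Prr18 (0.98), Pde8a (0.97), Ttyh2, 1700047M11Rik, Galnt6, Unc5b, St18, Sgk1, Plxnb3 and Anln (0.95). They include Sgk1, a kinase induced by glucocorticoids, which ran from 28.0 to 153 TPM, and the netrin receptor gene Unc5b, from 1.40 to 9.65 TPM. The lowest r belonged to the cation channel gene Trpc6 (-0.87, 1.70 to 18.6 TPM), the clock factor gene Arntl (-0.87, 24.4 to 41.2 TPM) and Dbpht2 (-0.87, 21.5 to 63.7 TPM).

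Since the myelin genes moved together, the 250 bases before their transcription starts were read for short motifs of factors of the lineage. The RefSeq promoter table (GRCm38.p6) held 22 of the 32 genes in 32 windows, some of which overlap within a gene. The SOX letters ACAAAG or ACAATG, searched on both strands, stood in 15 of the 32 windows (12 of 22 genes) and in 25.2% of all 32851 windows. The letters CTGGCAC or CTGGTAC of the MYRF motif stood in 6 of the 32 (5 genes: Cnp, Hapln2, Lpar1, Mag and Mog) and in 5.93% of all windows. The E-box CAGCTG, of the kind read by OLIG factors, stood in 4 of the 32 (Aspa, Gsn and Hapln2) and in 4271 of all 32851. A match of letters is no evidence of binding. The 4 windows printed here run 5′ to 3′ on the gene's strand with matches in capitals: Mog with a MYRF match, Ermn and Opalin with a SOX match each, and Pdgfra, the precursor gene that did not follow the myelin genes, with neither.

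Mog (chr17:37023399-37023648, - strand): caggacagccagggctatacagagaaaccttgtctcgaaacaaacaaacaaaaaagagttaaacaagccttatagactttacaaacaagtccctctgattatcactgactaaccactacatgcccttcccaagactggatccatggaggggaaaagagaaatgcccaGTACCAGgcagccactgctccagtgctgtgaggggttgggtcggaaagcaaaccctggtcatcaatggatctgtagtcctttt
Ermn (chr2:58052865-58053114, - strand): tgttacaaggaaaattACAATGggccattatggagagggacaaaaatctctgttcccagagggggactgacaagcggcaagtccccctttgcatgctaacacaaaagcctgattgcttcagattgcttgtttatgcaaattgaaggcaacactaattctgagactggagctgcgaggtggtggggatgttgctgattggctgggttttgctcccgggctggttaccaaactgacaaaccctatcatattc
Opalin (chr19:41077114-41077363, - strand): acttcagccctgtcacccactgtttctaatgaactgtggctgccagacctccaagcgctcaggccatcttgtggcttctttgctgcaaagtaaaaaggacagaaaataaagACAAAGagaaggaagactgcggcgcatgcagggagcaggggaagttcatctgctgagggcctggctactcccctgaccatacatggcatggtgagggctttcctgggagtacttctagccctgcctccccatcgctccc
Pdgfra (chr5:75152001-75152250, + strand): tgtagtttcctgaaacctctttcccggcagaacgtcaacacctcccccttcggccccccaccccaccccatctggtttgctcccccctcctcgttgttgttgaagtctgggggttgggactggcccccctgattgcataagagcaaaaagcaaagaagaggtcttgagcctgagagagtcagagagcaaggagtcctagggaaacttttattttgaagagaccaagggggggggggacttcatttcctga

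The 3 windows of myelin genes end directly before the annotated start of their gene. Mog, Ermn and Opalin had r of 0.97, 0.98 and 0.96 with the other myelin genes, although none of the motifs stood in all of their windows, and Pdgfra had -0.41. Whether the matches went with r was not tested. The 5 genes with a MYRF match had r from 0.91 (Lpar1) to 0.98 (Cnp), and genes without one could be as high. Mal (r = 0.99) and Cldn11 (0.97) had neither a SOX nor a MYRF match, like Pdgfra, while Apod (0.43) had a SOX match.

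The level of the 24 myelin genes was also read beside markers of cortical depth and of other cells. The mean log2(TPM + 0.5) of the 24 genes was, with its SD, 3.90 ± 0.99 in the 8 WT vehicle mice and 4.41 ± 0.99 in the 10 WT IMN mice. For Brd1+/- mice it was 4.14 ± 0.73 with vehicle and 4.34 ± 1.08 with IMN (n = 9 each). The highest mouse of each group was WT IMN 7 (6.29), Brd1+/- IMN 6 (6.17), WT vehicle 1 (5.99) or Brd1+/- vehicle 6 (5.30), and the lowest mice of the 4 groups lay between 2.82 and 2.97. WT vehicle 1 stood clear of the other 7 WT vehicle mice, which ended at 4.57. Without Brd1+/- vehicle 6 the other 8 mice of its group had a mean of 3.996 ± 0.62 and ended at 4.78.

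The same mean had an r of -0.77 with the mean of 6 genes of upper cortical layers (rank correlation -0.67) and of 0.61 with that of 6 genes of deep layers (0.57), each after group means were subtracted and over 36 libraries. It had an r of -0.56 with 7 microglial, -0.46 with 5 endothelial and -0.39 with 7 astrocyte genes, and of 0.04 with 6 genes of cortical glutamatergic neurons. The last value joined groups of opposite sign, with 0.80 in WT vehicle, -0.42 in Brd1+/- vehicle, 0.46 in WT IMN and -0.39 in Brd1+/- IMN, and was 0.27 without the 2 libraries farthest from the median. Without Brd1+/- vehicle 6 the r was -0.76 with upper layers and 0.58 with deep layers. The summed level of the upper-layer genes was 236 to 781 TPM and that of the deep-layer genes 77.3 to 348 TPM. Brd1+/- IMN 6 broke the pattern, with very high myelin genes and a deep-layer mean of 3.46 in a range of 2.76 to 5.42. Whether the position of the punch set the myelin level was not tested.

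**Figure D4:**
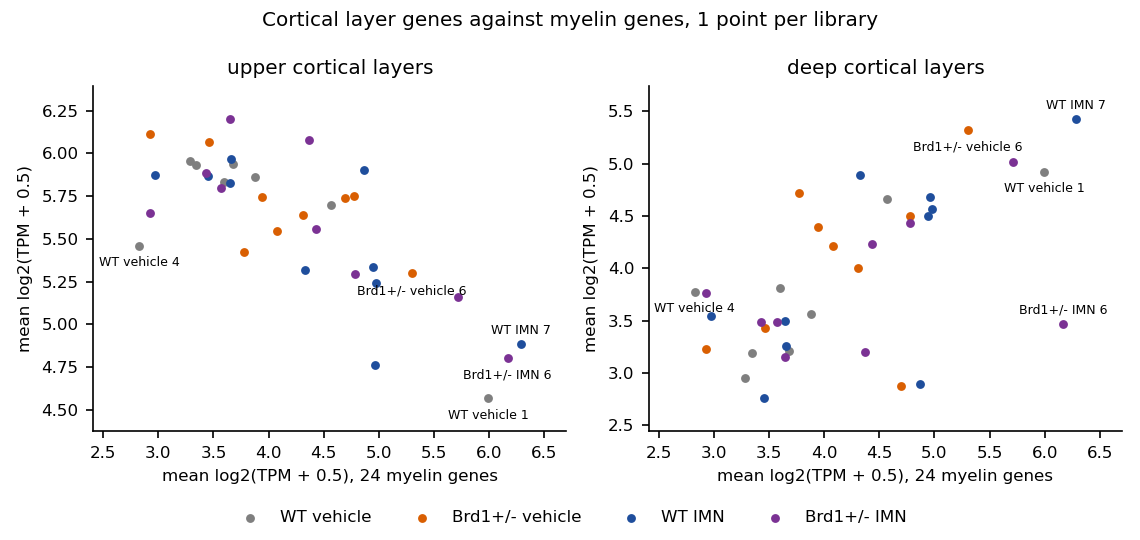
Mean log2(TPM + 0.5) of 6 upper-layer genes (left) and 6 deep-layer genes (right) against that of the 24 myelin genes, 1 point per library, with 5 libraries named. The libraries with the highest myelin genes lie low for the upper layers, and most of them lie high for the deep layers, with Brd1+/- IMN 6 as an exception.

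Genes of Schwann cells, which make peripheral myelin, were near 0: their summed level was 0.742 to 2.14 TPM and r with the 24 genes was -0.05. The 16 further genes of precursors and committed cells, such as Vcan and C1ql1, had a mean that did not follow the myelin genes over all libraries (r = 0.02). By group this r was -0.21 in WT vehicle, -0.001 in Brd1+/- vehicle, -0.15 in WT IMN and 0.45 in Brd1+/- IMN. It was -0.11 without the 2 libraries farthest from the median.

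Imipramine over both genotypes was tested with limma on all 36 libraries. No listed gene passed an adjusted p of 0.05 (0 of 32), against 0.274% of all genes tested, or 70 genes. At an unadjusted p under 0.05 there were 3 of 32, all with more RNA in IMN mice, against 9.38% of all genes tested and 3.9% of them in that direction. The median difference of the 24 myelin genes was 0.38 on the log2 scale, IMN minus vehicle, with all 24 above 0, and the median over all genes tested was 0.00. The 24 genes were not independent of each other, since r between their 276 pairs had a median of 0.94, so the count of signs is given as a description.

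Lpar1 had the lowest p of the list. It had a lowest, median and highest value of 3.36, 4.32 and 15.4 TPM in WT vehicle, 3.18, 5.05 and 10.7 in Brd1+/- vehicle, 3.91, 7.73 and 22.3 in WT IMN, and 3.51, 9.15 and 17.1 in Brd1+/- IMN. Both IMN medians lay above both vehicle medians, but all groups overlapped. The difference was 0.50 (95% interval 0.07 to 0.94, p = 0.025, adjusted p = 0.44 by limma).

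Gsn had medians of 11.0 TPM in WT vehicle, 15.0 in Brd1+/- vehicle, 19.6 in WT IMN and 19.3 in Brd1+/- IMN, with highest values between 31.955 and 46.3 TPM in the 4 groups. Its difference was 0.40 (0.02 to 0.78, p = 0.039, adjusted p = 0.49 by limma). Olig1 had medians of 46.6, 50.048, 56.1 and 56.7 TPM in the same order and a difference of 0.24 (0.02 to 0.45, p = 0.030, adjusted p = 0.46 by limma). In all 3 genes the vehicle and IMN ranges overlapped. When each of the 36 mice was left out in turn, the unadjusted p of Lpar1 stayed under 0.05 every time, that of Gsn passed it in 15 fits and that of Olig1 in 4.

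For the others the intervals were wide. Mobp had a difference of 0.52 (-0.39 to 1.44) and Mbp of 0.29 (-0.34 to 0.91), and both intervals hold 0. Olig2 had 0.23 (-0.01 to 0.48) and Sox10 -0.02 (-0.29 to 0.25). The precursor genes had both signs, with Cspg4 at -0.23 (-0.47 to 0.01, p = 0.057), Gpr17 at -0.11 (-0.27 to 0.05) and Pdgfra at 0.13 (-0.13 to 0.39). Among the markers of layers and other cells read beside them, 1 of 6 upper-layer, 1 of 5 endothelial, 1 of 3 ependymal and 1 of 3 Schwann cell genes had an unadjusted p under 0.05, and none of the deep-layer, glutamatergic, striatal, astrocyte, microglial and choroid plexus genes did. The upper-layer gene Rorb had -0.33 (-0.52 to -0.14, adjusted p = 0.14 by limma) and the endothelial transporter gene Slco1a4 0.38 (0.11 to 0.64, adjusted p = 0.26 by limma). The ependymal gene Dynlrb2 had -1.07 (-1.80 to -0.33, adjusted p = 0.26 by limma) and -0.87 without Brd1+/- vehicle 6. Their part in the myelin differences was not tested.

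**Figure D5:**
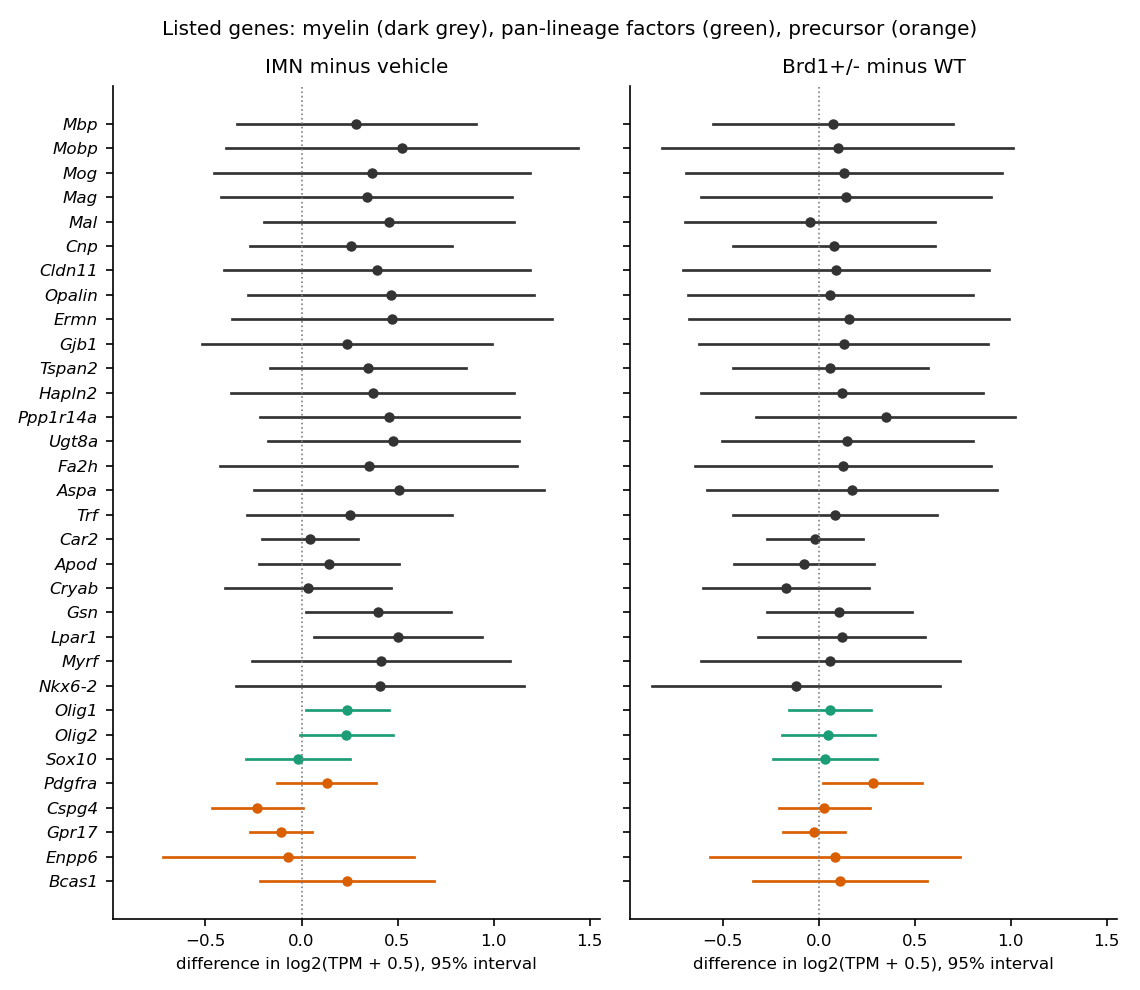
Difference in log2(TPM + 0.5) with its 95% interval for each listed gene, IMN minus vehicle over both genotypes (left) and Brd1+/- minus WT over both treatments (right), from limma on 36 libraries. The intervals of Gsn, Lpar1 and Olig1 on the left and of Pdgfra on the right lie above 0 before adjustment, and all the others include 0.

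Within WT mice the median IMN difference of the 24 genes was 0.56 with all 24 above 0, Mobp having 0.83 (-0.50 to 2.16) and Ermn 0.84 (-0.36 to 2.04). None of the 32 genes passed at the adjusted level (background 0.0%, lowest adjusted p = 0.78 by limma) or unadjusted (background 6.6%). Of the markers of layers and other cells, Tac1 of striatal neurons had 0.81 (0.32 to 1.2996), Slco1a4 0.55 (0.17 to 0.92), Rorb -0.41 (-0.67 to -0.15) and Prx, a Schwann cell gene, -0.27 (-0.44 to -0.11), the 4 with an unadjusted p under 0.05 and all with an adjusted p of 0.49 or more by limma. This comparison rested heavily on WT vehicle 1. The myelin genes moved together, so a count of them is a description. WT vehicle 1 had the highest mean of the 24 genes in its group, so leaving it out raises their IMN difference by construction. Without that mouse the median was 0.85 and 11 of 32 genes had an unadjusted p under 0.05, all higher in IMN: Gsn, Ermn, Lpar1, Ppp1r14a, Ugt8a, Myrf, Tspan2, Hapln2, Olig1, Mobp and Trf. The background was then 10.6% of genes tested, or 3.85% counting those higher in IMN alone, and again none of the 32 passed after adjustment (lowest adjusted p = 0.31 by limma, against 0.125% of all genes). Without WT IMN 7, the highest WT IMN mouse by the mean of the 24 genes, the median was 0.34. In 13 of the 18 fits that left out 1 mouse, none of the 32 genes had an unadjusted p under 0.05.

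Within Brd1+/- mice the median IMN difference of the 24 genes was 0.20, with 23 above 0. Lpar1 had 0.51 (-0.07 to 1.09), as in WT mice (0.50), Mobp had 0.22 (-1.03 to 1.47) and Cspg4 -0.31 (-0.68 to 0.06). None of 32 passed, adjusted (background 0.00782%, lowest adjusted p = 0.92 by limma) or unadjusted (background 5.52%). The median was -0.05 without Brd1+/- IMN 6 and 0.38 without Brd1+/- IMN 3, so its sign rested on single mice.

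The difference between the IMN effects in the 2 genotypes was tested by the interaction term. Its median over the 24 genes was -0.27, with 22 below 0, led by Ermn at -0.73 (-2.40 to 0.95) and Mobp at -0.61 (-2.46 to 1.24). None of 32 passed, adjusted (background 0.0%, lowest adjusted p = 1.00 by limma) or unadjusted (background 3.2%). The median was -0.61 without WT vehicle 1 and -0.08 without WT IMN 7.

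The genotype was compared over both treatments, within vehicle and within IMN. Over both treatments the median of the 24 genes was 0.09, Brd1+/- minus WT, and none of 32 passed after adjustment (background 0.00391%, lowest adjusted p = 1.00 by limma). Pdgfra was the only listed gene with an unadjusted p under 0.05, against 3.62% of all genes tested. It had a lowest, median and highest value of 7.42, 14.1 and 23.7 TPM in WT vehicle, 11.0, 18.3 and 22.4 in Brd1+/- vehicle, 10.1, 15.9 and 27.03 in WT IMN, and 13.1, 18.9 and 26.1 in Brd1+/- IMN. The mutant medians lay above the WT medians within each treatment, and the ranges overlapped. The difference was 0.28 (0.02 to 0.54, p = 0.033, adjusted p = 1.00 by limma), and it was 0.22 with p = 0.069 without WT vehicle 1, the mouse with the least Pdgfra and very high myelin genes. Leaving out any of 7 mice took the p above 0.05.

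Within vehicle mice the median genotype difference of the 24 genes was 0.22, with Mobp at 0.42 (-0.82 to 1.66), Ppp1r14a at 0.63 (-0.38 to 1.64) and Pdgfra at 0.32 (-0.06 to 0.70). The median was 0.09 without Brd1+/- vehicle 6 and 0.57 without WT vehicle 1. Within IMN mice it was -0.06, with Mobp at -0.19 (-1.51 to 1.13) and Cryab at -0.28 (-0.86 to 0.30), and it was -0.30 without Brd1+/- IMN 6 and 0.12 without WT IMN 7. In neither comparison did any of 32 pass, adjusted (background 0.0% in both, lowest adjusted p = 1.00 by limma) or unadjusted (background 3.75% and 3.23%). Brd1 itself was thus not called after adjustment in either comparison. Its vehicle ranges were nevertheless apart, at 22.6 to 31.9 TPM in WT and 13.8 to 20.9 TPM in Brd1+/- mice. The study, with edgeR, reported Brd1 as changed in aCC vehicle mice after correction. The absence of calls here therefore says little about whether the listed genes differ.

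Because the myelin level varied so much between libraries, the comparisons were repeated with the mean of the 24 other myelin genes as a covariate, a choice made after seeing the data. The median 95% interval over the 24 genes narrowed from 1.35 to 0.39 log2 units for IMN over both genotypes, and the median difference went from 0.38 to 0.03. For genotype over both treatments it went from 0.09 to -0.03. None of the 32 genes passed after adjustment in any of the 7 comparisons, and 68 and 2 genes (0.266% and 0.00782% of all tested) did so for IMN and for genotype.

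Relative to the other myelin genes, Lpar1 had an IMN difference of 0.29 (0.09 to 0.48, p = 0.0046, adjusted p = 0.24 by limma), Gsn of 0.22 (0.04 to 0.40) and Olig1 of 0.13 (0.03 to 0.24). Sox10 had -0.15 (-0.27 to -0.03) and Enpp6 -0.38 (-0.71 to -0.04). These 5 of 32 had an unadjusted p under 0.05, against 9.18% of all genes tested. For genotype, Mal had -0.18 (-0.30 to -0.07), Cryab -0.25 (-0.43 to -0.07) and Pdgfra 0.30 (0.06 to 0.54), 3 of 32 against 4.1%, and their adjusted p was 1.00 by limma. A covariate that a treatment itself may move can hide or shift an effect of that treatment.

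The pathway around the listed genes was read from lists of its own. Of the 24 tested genes among the other myelin genes, 0 passed for IMN over both genotypes at either level, and the lowest p belonged to Cntn2, an axonal adhesion protein (0.32, adjusted p = 0.57 by limma). Of the 16 other precursor genes 0 passed after adjustment and 2 had an unadjusted p under 0.05, both lower with IMN, where 9.38% of all genes tested had such a p and 5.48% had it with less RNA in IMN mice. C1ql1, a secreted protein enriched in precursors, came nearest, with a difference of -0.30 (-0.45 to -0.15, adjusted p = 0.077 by limma). Of the 11 signals to the lineage, among them the precursor mitogen Pdgfa and the growth factor Nrg1, 0 passed and 3 were lower at the unadjusted level, with the Nogo receptor gene Rtn4r at -0.24 (-0.38 to -0.10, adjusted p = 0.15 by limma).

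For genotype over both treatments 0 genes of these 3 lists passed after adjustment by limma, against 0.00391% of all genes tested, and 1 had an unadjusted p under 0.05, against 3.62%. Prx, which encodes periaxin of peripheral myelin and stood in the Schwann cell list, was the only gene of any list that passed. It was lower with IMN over both genotypes by a difference of -0.22 (-0.32 to -0.12, adjusted p = 0.038 by limma), with medians of 0.967 TPM in WT vehicle, 0.782 in Brd1+/- vehicle, 0.718 in WT IMN and 0.635 in Brd1+/- IMN. The call was lost in 15 of 36 fits that left out 1 mouse, where the adjusted p was 0.018 to 0.068, and at these low levels the difference depends on the added 0.5 TPM.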

How the data were processed

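RNA of aCC punches from 36 mice was sequenced, 1 library per mouse. Per the labels, the submitters used FastQC, Trimmomatic, HISAT2 2.1.0 and StringTie 1.3.4 with GRCm38, and the values the authors deposited are TPM per gene. TPM are relative within a library, so a gene's TPM also depends on the other RNA in the punch, and they keep no read depth. Ensembl identifiers were matched to symbols and positions through GENCODE M21 (GRCm38), which named 52403 of 52636 genes. Groups and replicate numbers came from the labels.

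Values were used as log2(TPM + 0.5), a scale that shrinks differences of scarce genes. A gene was tested if 8 or more libraries had 0.1 TPM or more of it, which held for 25572. Groups were compared with limma 3.58.1 (R 4.3.3), with trend, for each pair of groups on its own libraries and, for the interaction and both pooled effects, on all 36, with Benjamini-Hochberg adjustment over all genes tested. The fit was checked on simulated data in which each gene varied on its own. The myelin genes moved together, so that check does not speak to them as a set. Tables and figures used Python 3.11.15, pandas 2.3.3 and matplotlib 3.10.9. P-values set a difference against the spread between these mice. With 1 library per mouse, that spread also holds differences between punches and between libraries.

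The 32 genes and the other lists were chosen with earlier results of these data known. The text names all 32 genes, genes of the other lists that passed or had the lowest p of their list, and outside them the 10 genes with the highest and the 3 with the lowest r to the 24 myelin genes. Ctgf of the deep-layer list was not matched. Some single-gene results of the other lists are not reported here. Alternatives were other pseudocounts (0.1 and 1), filters and scalings, a replicate block, all libraries in 1 fit, leaving out each library, and, added after seeing the data, other myelin genes as a covariate. Replicate numbers are shared by the groups, but the 51 same-numbered pairs had correlations of -0.26 to 0.26 with a median of -0.01, so they were not taken as pairs. Promoter windows came from RefSeq.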

Additional observations from a re-analysis of the deposited data

Results flagged for a closer look

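Each listed gene was checked within each group for a mouse set far apart from the others by Dixon's gap test on log2(TPM + 0.5). Of 128 gene-by-group tests 13 passed, where chance alone gives about 1 in 20, or 6.4, and the genes are not independent. All 13 were the highest value of a WT group. On TPM itself, a scale that stretches high values, 58 passed, among them all 13.

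WT vehicle 1 accounted for 7. It had 536.9 TPM of Mbp where the next WT vehicle mouse had 159, 211.3 TPM of Cryab where the next had 63.1, and 155.6 TPM of Trf where the next had 48.0. It also had 122.6 TPM of Car2 (next 73.3), 28.82 TPM of Hapln2 (next 6.20), 21.71 TPM of Gjb1 (next 4.09) and 18.21 TPM of Aspa (next 3.33).

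WT IMN 7 accounted for the other 6. It had 154.5 TPM of Trf where the next WT IMN mouse had 58.8, 153.3 TPM of Car2 where the next had 82.9, and 211.2 TPM of Apod where the next had 107. The lineage factors stood out in it as well, with 110.7 TPM of Olig1 (next 65.4) and 30.05 TPM of Olig2 (next 15.5), as did Enpp6 with 11.12 TPM (next 2.71). Mobp, Mog and Myrf passed in both mice on TPM and in neither on the log2 scale.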

How the results depend on the processing

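None of the 32 genes passed after adjustment in any of 247 alternative fits, including those that left out 1 library, and the lowest adjusted p of a listed gene in any of them was 0.19 by limma. The median SD of the 24 myelin genes over all libraries was 0.97 to 1.11 under the other pseudocounts and scalings and without Brd1+/- vehicle 6. With other myelin genes as a covariate, which by its construction removes what a gene shares with them, Mbp for IMN over both genotypes went from 0.29 to -0.042, and the median of the 24 genes went from 0.22 to -0.03 for genotype in vehicle mice, from 0.20 to -0.02 for IMN in Brd1+/- mice and from 0.09 to -0.03 for genotype over both treatments. With the replicate block the median differences of the 24 myelin genes were 0.87 for IMN in WT mice (0.56 without the block), 0.20 for IMN in Brd1+/- mice, 0.47 for IMN over both genotypes, 0.27 and -0.15 for genotype in vehicle and in IMN mice, 0.09 for genotype over both treatments and -0.44 for the interaction. The block moved the count of listed genes with an unadjusted p under 0.05 from 0 to 3 for IMN in WT mice, from 0 to 3 for IMN in Brd1+/- mice and from 3 to 5 for IMN over both genotypes, and it changed no adjusted call of a listed gene. The share of all genes tested with such a p under the block is not given here, so these counts cannot be read as particular to the listed genes. Prx lost its adjusted call with the replicate block and with a pseudocount of 0.1 (2 of 8 alternatives, adjusted p 0.028 to 0.0995 by limma), and the cause was not tested. Leaving out 1 library gave medians of the 24 genes from 0.09 to 0.57 and from -0.30 to 0.12 for genotype in vehicle and in IMN mice, from -0.05 to 0.38 and from 0.34 to 0.85 for IMN in Brd1+/- and in WT mice, from 0.26 to 0.53 and from -0.02 to 0.22 for both pooled effects (IMN, then genotype), and from -0.61 to -0.08 for the interaction. Read depth was not recoverable from TPM.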
